A study of Mus musculus with 6 samples.

Results

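Synaptotagmins are membrane proteins of vesicles and of the plasma membrane that carry a pair of C2 domains, which in many members bind calcium and thereby couple calcium entry to vesicle fusion. Synaptotagmin 1 and synaptotagmin 2 trigger fast transmitter release, synaptotagmin 7 acts in slower release and in vesicle supply, and other members serve dense core vesicles or plasma membrane traffic. Hindbrain neurons are known for synaptotagmin 2 at many fast synapses. The 10 genes described here, *Syt1* to *Syt7*, *Syt9*, *Syt10* and *Syt11*, were taken by name from 49568 gene names, and they are 10 of the 17 genes named *Syt1* to *Syt17*. The family was singled out because *Syt10* differs between the Dbx1 and non-Dbx1 samples, so differences of the members between these groups are given as a description and carry no test.

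RNA-Seq was run on 6 samples of 15 neurons each, harvested from the preBötzinger Complex (preBötC), the brainstem site that generates inspiratory rhythm, in newborn mice at postnatal day 2. Every mouse was a Dbx1CreERT2; Rosa26tdTomato reporter born to a dam given tamoxifen during gestation, and each sample came from a different mouse. The 3 Dbx1 samples held tdTomato-fluorescent neurons, whose progenitors had expressed the transcription factor *Dbx1*, and the 3 non-Dbx1 samples held neuronal somata without fluorescence. The separation thus depended on tamoxifen-induced recombination. Each sample is a pool of neurons, so fewer cells with a transcript and less of it per cell cannot be told apart.

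Levels are RPKM as the authors computed them, that is, reads of a gene scaled to its exon length and to the read total of the sample. The read totals behind the values ran from 6464675 to 9432958. The neuronal marker genes summed to 993 to 1708 RPKM in the Dbx1 samples and to 993 to 1380 in the non-Dbx1 samples, and all 6 of them had reads in every sample. Markers of other cells were not spread evenly. The 4 globin genes summed to 89.6 to 505 RPKM in the Dbx1 samples and 732 to 13946 in the non-Dbx1 samples, with most in non-Dbx1 replicate 1. The 4 astrocyte markers summed to 13.9 to 18.5 and 19.2 to 31.0 RPKM, and the 4 oligodendrocyte markers to 15.8 to 68.3 and 46.0 to 359. The 4 microglial markers stayed at 0.202 to 2.58 and 0 to 1.50 RPKM, with *Tnf* and *Ccl3* at 0 throughout. The 3 motor neuron markers reached 54.4 RPKM in non-Dbx1 replicate 3 and at most 1.33 in a Dbx1 sample. The catecholamine genes *Th* and *Dbh* reached 452 RPKM in non-Dbx1 replicate 2 and at most 2.70 in a Dbx1 sample.

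*Syt10* was read almost entirely from the Dbx1 neurons. It encodes a calcium-binding synaptotagmin that is known from olfactory bulb neurons, where it drives the calcium-dependent secretion of insulin-like growth factor 1, and its transcript is induced by seizures in the hippocampus. The gene (ENSMUSG00000063260) lies on the minus strand of chromosome 15, from 89782393 to 89841860 of GRCm38, with 7 exons that total 1845 bases and share no base with another annotated gene. RPKM of *Syt10* was 4.43, 8.998 and 3.35 in Dbx1 samples, as against 0.252, 0 and 0 in non-Dbx1 samples. Every Dbx1 sample lay above every non-Dbx1 sample, and the lowest Dbx1 value was more than an order of magnitude above the highest non-Dbx1 value.

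These values rest on few reads. *Syt10* had 65, 125 and 43 reads in Dbx1 samples, as against 3, 0 and 0 in non-Dbx1 samples. Where no read was found, 3 reads would have given 0.190 RPKM in non-Dbx1 replicate 2 and 0.172 in replicate 3, so a low level of *Syt10* was not detectable there. Relative to the read totals, the 233 reads of the Dbx1 samples against 3 in the non-Dbx1 samples gave a ratio of 84.6, with an exact 95% interval from 28.6 to 413. That interval covers counting error alone, not the spread between mice, and reads from amplified cDNA are not independent molecules. It is no test of the difference either, since *Syt10* was the gene for which the family was singled out. The group means were 5.59 ± 2.998 and 0.0838 ± 0.145 RPKM (SD, n = 3). The log2 fold change (L2FC), taken as the difference between group means of log2(RPKM + 1) and positive where Dbx1 was higher, was 2.52 for *Syt10* with a standard error of 0.55. Since a pseudocount of 1 exceeds the non-Dbx1 level, this L2FC understates the ratio, and the log2 of the ratio of the group means was 6.06.

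The 250 bases before the annotated start of *Syt10* are shown beside those of its relative *Syt3*, which had reads in every sample. Both are RefSeq sequences of GRCm38.p6, where 7 of the 10 members had an entry, and capitals mark TGACG, the half-site of the cAMP response element, and GGGCGG, the GC box, on either strand.
Syt10, chr15:89841861-89842110, minus strand: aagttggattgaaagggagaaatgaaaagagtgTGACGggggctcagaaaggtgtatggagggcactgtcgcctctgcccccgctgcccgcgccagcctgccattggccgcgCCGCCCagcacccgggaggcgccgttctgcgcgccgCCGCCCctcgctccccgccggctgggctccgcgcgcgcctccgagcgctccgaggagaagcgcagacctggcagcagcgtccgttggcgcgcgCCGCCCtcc
Syt3, chr7:44383876-44384125, plus strand: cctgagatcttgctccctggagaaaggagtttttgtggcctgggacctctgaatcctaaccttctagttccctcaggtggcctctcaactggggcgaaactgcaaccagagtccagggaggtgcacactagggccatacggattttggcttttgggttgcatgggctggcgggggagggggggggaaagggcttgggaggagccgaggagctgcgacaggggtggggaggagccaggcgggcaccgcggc

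The *Syt10* window held 1 match to TGACG and 3 to GGGCGG, and the *Syt3* window held none of either. Of 32851 such windows in the RefSeq table, 17.8% held TGACG and 32.7% held GGGCGG. The E-box CACGTG, present in 6.02% of windows, was in neither. The *Syt10* window had 32 CpG dinucleotides and a GC content of 72.0%, against 8 CpG and 62.4% in *Syt3*, where the median window had 6 CpG. A match of letters describes the sequence and is not evidence of binding.

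**Figure D1:**
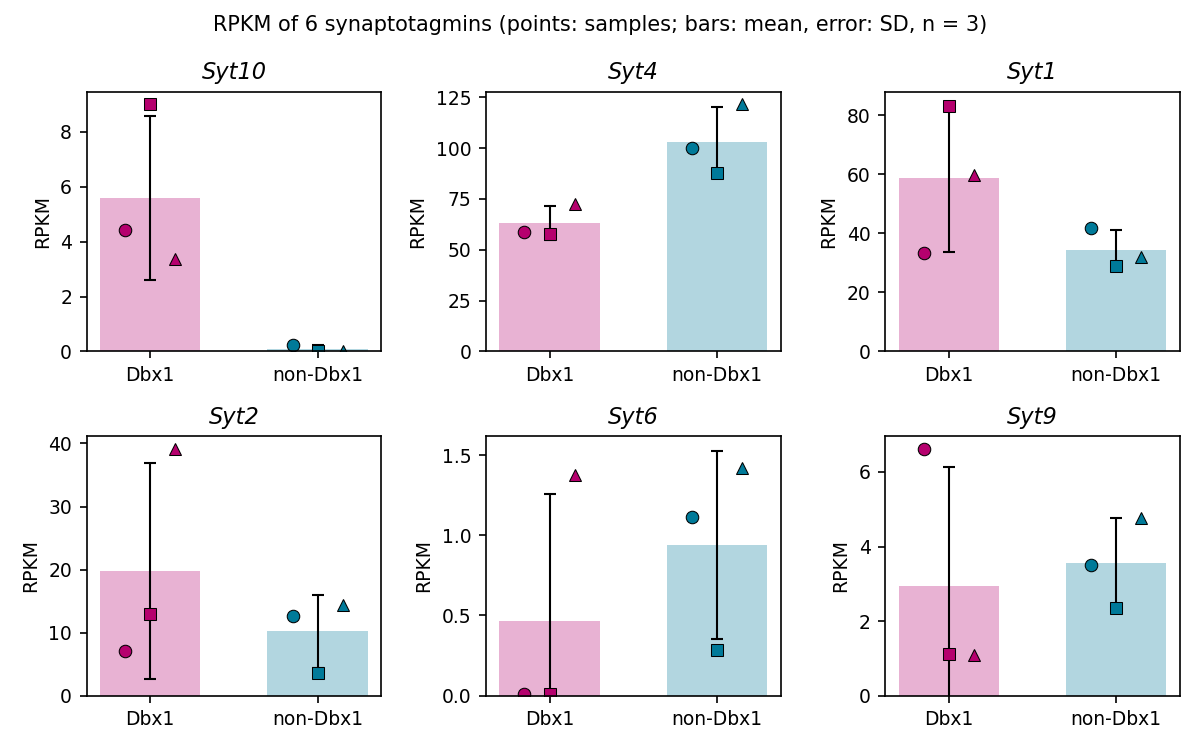
RPKM of *Syt10*, *Syt4*, *Syt1*, *Syt2*, *Syt6* and *Syt9* in each sample (points, circle, square and triangle for replicates 1, 2 and 3), with bars for the group mean from 0 and lines for the SD (n = 3, cut at 0). The points of the groups do not overlap in *Syt10*, where the Dbx1 samples are at 3.35 to 8.998, nor in *Syt4*, where they are the lower ones at 57.8 to 72.5.

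The closest relatives of *Syt10* did not share its distribution. By the longest open reading frames of their annotated transcripts, *Syt10* was nearest to *Syt6*, with 67.3% of bases identical, then *Syt9* with 66.0% and *Syt3* with 62.7%. *Syt6*, best known from the acrosome reaction of sperm, measured 0.00996, 0.0105 and 1.38 RPKM in Dbx1 samples, as against 1.11, 0.287 and 1.42 in non-Dbx1 samples. In the first 2 Dbx1 samples that was a single read each, against 121 reads in the third, so the Dbx1 samples spanned more than the non-Dbx1 samples did. *Syt9*, a calcium-binding member found on dense core vesicles, measured 6.61, 1.12 and 1.09 RPKM in Dbx1 samples, as against 3.51, 2.36 and 4.77 in non-Dbx1 samples. Its highest and its lowest value were both in Dbx1 samples, and the groups overlapped. *Syt3*, which is linked to the retrieval of AMPA receptors from the postsynaptic membrane, was abundant in both groups, at 55.3, 53.9 and 76.5 RPKM in Dbx1 samples, as against 49.5, 25.3 and 69.9 in non-Dbx1 samples. Its one low value was that of non-Dbx1 replicate 2.

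Within the samples, *Syt3* exceeded *Syt10* in all 6, by 4.36 ± 1.33 on the log2 scale (SD of the paired differences), and exceeded *Syt6* in all 6, by 5.07 ± 0.60. With the merged exon length these differences were 4.91 and 5.18. As deposited, the *Syt3* minus *Syt10* difference was 3.33 ± 0.85 in the Dbx1 samples alone and 5.40 ± 0.72 in the non-Dbx1 samples alone. *Syt9* was above *Syt10* in 4 of 6 samples. *Syt10* was higher than *Syt6* in the 3 Dbx1 samples and lower in the 3 non-Dbx1 samples. This order restates the *Syt10* contrast for which the family was chosen.

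*Syt4* was the most abundant member by mean RPKM as deposited, though not with the merged exon length. Its groups, like those of *Syt10*, did not overlap. It encodes a synaptotagmin of dense core vesicles that binds calcium poorly, and it modulates the release of peptides and neurotrophins. RPKM of *Syt4* was 58.5, 57.8 and 72.5 in Dbx1 samples, as against 99.8, 87.7 and 121 in non-Dbx1 samples, from 1699 to 4470 reads. The means were 63.0 ± 8.31 and 103 ± 17.1 (SD, n = 3), a ratio of 1.64 in favour of the non-Dbx1 samples. The L2FC of *Syt4* was −0.70 (standard error 0.23), and without non-Dbx1 replicate 3, the highest sample, it was −0.57. The globin and astrocyte sums were also higher in each non-Dbx1 sample than in any Dbx1 sample, and their part in the *Syt4* difference was not tested. Reads were counted without strand, and part of the exon sequence of *Syt4* is shared with an opposite-strand gene, *Gm26658*. Of the other members, the same holds for *Syt6* with *Atg4a-ps* and for *Syt7* with *Gm26859*.

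*Syt11*, the nearest relative of *Syt4* at 64.2% of bases, encodes a protein that does not bind calcium and is linked to endocytosis. It measured 41.1, 62.9 and 52.3 RPKM in Dbx1 samples, as against 57.2, 69.3 and 48.4 in non-Dbx1 samples. Its values were the most even of the 10 genes, with a highest value 1.69 times the lowest, and the groups overlapped. *Syt4* was above *Syt11* in 5 of 6 samples as deposited, the exception being Dbx1 replicate 2. With the merged exon length of the annotation in place of the length the authors used, *Syt4* was above *Syt11* in 1 of 6.

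*Syt1* and *Syt2*, which encode fast calcium sensors, were present in every sample. RPKM of *Syt1* was 33.3, 83.2 and 59.7 in Dbx1 samples, as against 41.9, 28.9 and 31.8 in non-Dbx1 samples. The highest values were those of Dbx1 replicates 2 and 3, while Dbx1 replicate 1 lay within the range of the non-Dbx1 samples. The L2FC of *Syt1* was 0.69 (standard error 0.35) and fell to 0.39 without Dbx1 replicate 2. *Syt2* measured 7.15, 12.9 and 39.2 RPKM in Dbx1 samples, as against 12.7, 3.61 and 14.4 in non-Dbx1 samples. The L2FC of *Syt2* was 0.75 (standard error 0.67), and it was 0.11 without Dbx1 replicate 3, which held by far the highest value.

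*Syt1* exceeded *Syt2* in all 6 samples, by 1.78 ± 0.84 on the log2 scale. The reading frames of *Syt1* and *Syt2* shared 75.4% of bases, more than any other pair of synaptotagmins. Even so, no stretch of 35 bases was shared between their transcripts, and only 5 of the 136 pairs among the 17 genes shared any.

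*Syt5*, which by its reading frame groups with *Syt1* (68.3% of bases) and *Syt2* (68.1%), measured 48.7, 30.4 and 37.7 RPKM in Dbx1 samples, as against 21.2, 57.5 and 32.8 in non-Dbx1 samples. The lowest and the highest sample were both non-Dbx1, and the group means of 38.9 and 37.2 RPKM differed by less than either SD. The numbers of *Syt5* and *Syt9* have been exchanged in part of the literature, and the names here are those of the annotation. *Syt7*, the sensor of asynchronous release, measured 4.96, 9.44 and 12.01 RPKM in Dbx1 samples, as against 18.2, 13.0 and 7.09 in non-Dbx1 samples. The 2 highest values were non-Dbx1, but non-Dbx1 replicate 3 lay among the Dbx1 samples. *Syt1* exceeded *Syt7* in all 6 samples, by 2.01 ± 0.76 on the log2 scale.

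**Figure D2:**
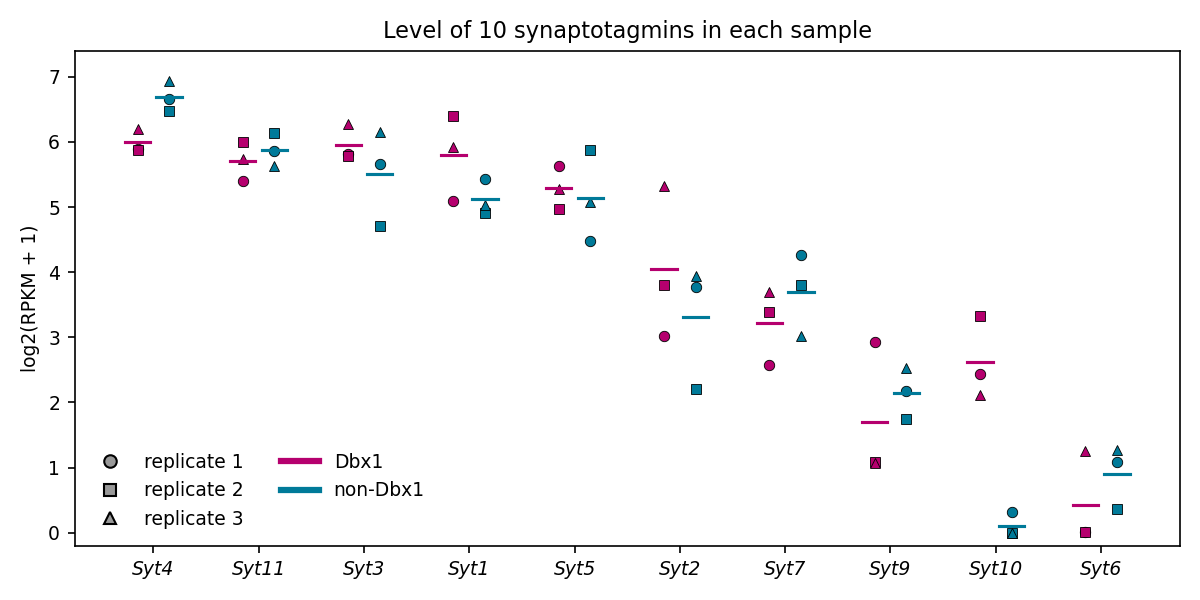
Level of each of the 10 synaptotagmins, as log2(RPKM + 1), ordered from left to right by mean RPKM over the 6 samples. Points are samples, with shapes for the replicate number, and short lines are group means. *Syt4*, *Syt11*, *Syt3*, *Syt1* and *Syt5* lie high in every sample, and the non-Dbx1 points of *Syt10* lie at or close to 0.

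Ordered by mean RPKM over the 6 samples, the genes were *Syt4* (83.0), *Syt11* (55.2), *Syt3* (55.1), *Syt1* (46.5), *Syt5* (38.1), *Syt2* (15.0), *Syt7* (10.8), *Syt9* (3.24), *Syt10* (2.84) and *Syt6* (0.703). None of the 9 pairs of neighbours in this order kept the same sign in all 6 samples. The mean paired difference on the log2 scale was larger than its SD in 3 pairs, each with the same sign in 5 of 6 samples. These were *Syt4* over *Syt11* (0.55 ± 0.48), *Syt5* over *Syt2* (1.54 ± 1.36) and *Syt7* over *Syt9* (1.54 ± 1.19). In the other pairs it was smaller than its SD. *Syt4* exceeded 97.9% of the genes detected in any sample by mean RPKM, and *Syt10* exceeded 64.7%. All 10 members passed the filter of RPKM above 0 in at least 3 samples, and 9 had reads in all 6 samples. *Syt10* was the exception, with reads in 4 samples, and it passed that filter through the Dbx1 samples, so its passing already reflects the difference.

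The order depended on the exon length. The length behind each deposited value was worked out from the steps between RPKM values, and it equalled the merged exon length of the GENCODE vM21 annotation for 1 of the 10 members, *Syt10*. It was longer for 7 members and shorter for 2, from 0.645 times for *Syt2* to 2.17 times for *Syt6*. For *Syt1* it was 16033 bases against 8338 in the annotation, and for *Syt11* 10593 against 5205. With the merged exon length, *Syt11* (112 RPKM) ranked first and *Syt1* (89.4) second, ahead of *Syt4* (83.2) and *Syt3* (80.7). The length is the same in every sample, so it leaves the ratio of RPKM between groups as it is. The L2FC, which has a pseudocount, would shift with the length and was not computed with the merged length.

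**Figure D3:**
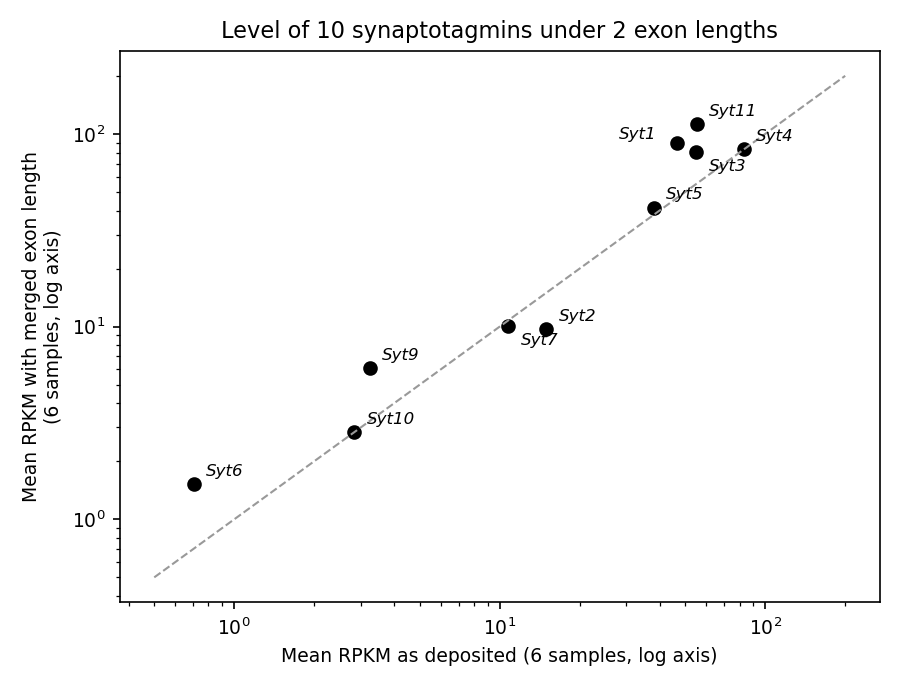
Mean RPKM over the 6 samples as deposited (horizontal, log axis) and with the merged exon length of the annotation (vertical, log axis) for the 10 synaptotagmins, with a dashed line where both are equal. *Syt11* and *Syt1* rise to 112 and 89.4 RPKM above the line, *Syt2* falls below it and *Syt10* lies on it.

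Summed over the 10 members, RPKM was 260.0, 321 and 356 in Dbx1 samples, as against 305, 288 and 332 in non-Dbx1 samples. The means of 312 ± 48.4 and 308 ± 22.3 (SD, n = 3) differed by less than the spread within either group. *Syt4* made up 18.0% to 22.5% of the sum in the Dbx1 samples and 30.5% to 36.6% in the non-Dbx1 samples. With the deposited lengths it was the largest member in all 3 non-Dbx1 samples and in Dbx1 replicate 1, while *Syt1* led in Dbx1 replicate 2 with 25.9% and *Syt3* in Dbx1 replicate 3 with 21.5%. These ranks did not hold with the merged exon length, where the non-Dbx1 mean of *Syt11* was 119 RPKM against 103 for *Syt4*. In the Dbx1 samples the means of *Syt1* (113), *Syt11* (106) and *Syt3* (90.8) then all exceeded that of *Syt4* (63.1). *Syt10* contributed 1.70%, 2.81% and 0.942% in the Dbx1 samples and at most 0.0824% in a non-Dbx1 sample.

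**Figure D4:**
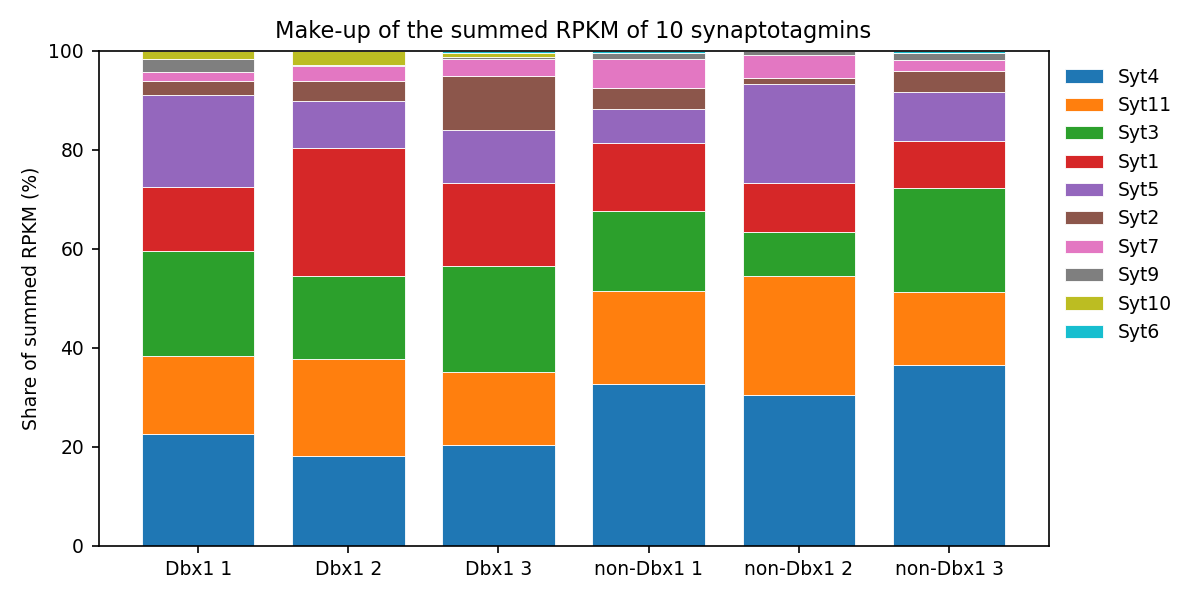
Share of each member (percent) in the summed RPKM of the 10 synaptotagmins, 1 bar per sample. The bottom segment, *Syt4*, runs from 18.0% to 22.5% in the Dbx1 bars and from 30.5% to 36.6% in the non-Dbx1 bars, and *Syt10* is visible in the Dbx1 bars only.

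Across the 17614 genes that passed this filter, limma on log2(RPKM + 1) with a false discovery rate (FDR) of 0.1 called 0 genes higher in the Dbx1 samples and 1 lower, which is 0.00568% of the genes tested. At an unadjusted p under 0.05 it had 480 higher (2.73%) and 436 lower (2.48%), 5.2% in all. The 10 members were part of this fit, but no call is read for them, as their differences carry no test. Of the members, 1 had non-overlapping groups with Dbx1 higher (*Syt10*), where 5.35% of all genes tested did, and 1 with Dbx1 lower (*Syt4*), where 5.24% did, or 10.6% in either direction. Nothing is read from these counts, since the family was chosen with the contrast known. The L2FC was above 0 for 5 members and below 0 for 5, with a median of −0.0053 beside 0.0089 over all genes tested.

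**Figure D5:**
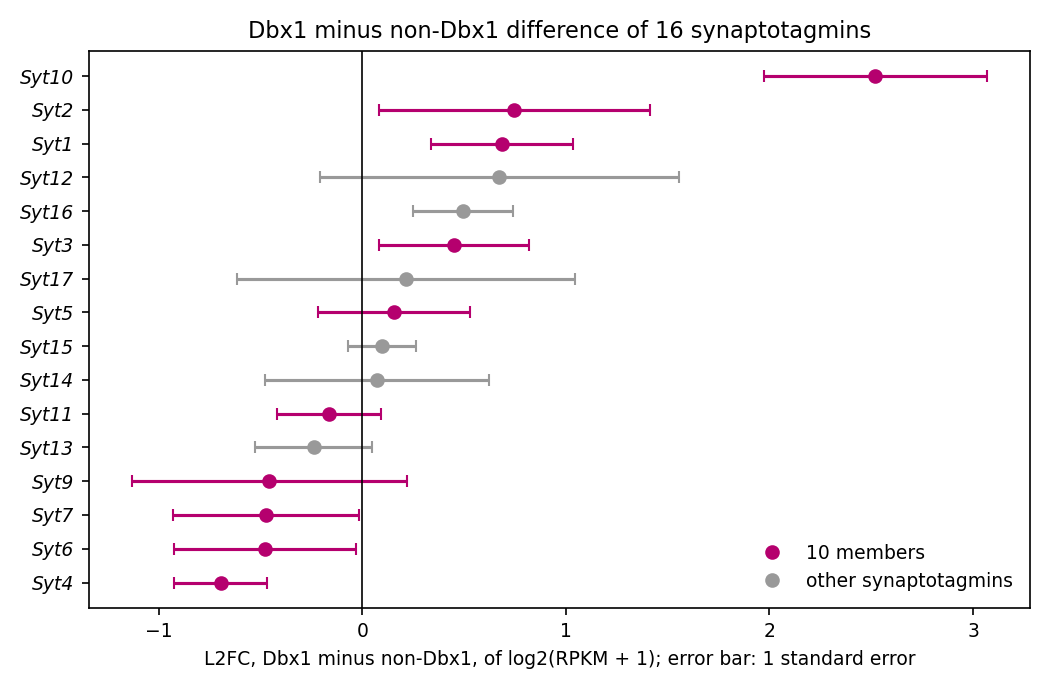
L2FC between the Dbx1 and non-Dbx1 samples (horizontal axis, difference of group means of log2(RPKM + 1)) for the 16 synaptotagmins that passed the filter on low values, with bars of 1 standard error. *Syt10* stands at 2.52, and the other genes lie between −0.70 for *Syt4* and 0.75 for *Syt2*.

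The remaining 7 synaptotagmins, chosen by name, had no gene called by limma, and none had an unadjusted p under 0.05 among the 6 that passed the filter. The lowest FDR in limma was 0.912, for *Syt16*. *Syt16*, which lacks the residues that bind calcium, measured 62.9, 41.2 and 43.4 RPKM in Dbx1 samples, as against 32.6, 33.8 and 35.5 in non-Dbx1 samples. Its L2FC was 0.50 (standard error 0.25). The groups did not overlap in 1 of the 6, *Syt16*, with Dbx1 higher, beside 5.35% of all genes. *Syt13*, another member without calcium binding, was high throughout, with means of 49.6 ± 14.3 and 58.0 ± 12.9 RPKM (SD, n = 3). *Syt17* ran from 0.857 to 16.2 RPKM, *Syt12* from 0.0719 to 9.33 and *Syt14* from 0.106 to 2.71, each with overlapping groups. *Syt15* had 15 reads in Dbx1 replicate 1 and at most 2 in any other sample. *Syt8* had 3 reads in Dbx1 replicate 2 and none elsewhere. Limma on the whole reads (voom) called none of the 5 it tested, which left out *Syt8* and *Syt15* for low reads. Over all genes, voom called 0 of the 13981 it tested, so no list could hold a call.

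Of 26 genes of the vesicle release machinery, 25 passed the filter and limma called 0 at an FDR under 0.1, with 1 higher and 0 lower at an unadjusted p under 0.05, where 2.73% and 2.48% of all genes tested were. Voom called 0 as well, as it did over all genes it tested. The groups did not overlap in 2 of the 25, *Rims1* and *Rph3a*, both higher in Dbx1, beside 5.35% of all genes. Their L2FC was above 0 for 18 and below 0 for 7, where it was above 0 for 8953 of the 17614 genes, with a median of 0.20 beside 0.0089 over all genes tested. The largest L2FC was that of *Rph3a*, a vesicle protein with paired C2 domains like the synaptotagmins. *Rph3a* measured 28.8, 27.6 and 12.3 RPKM in Dbx1 samples, as against 11.9, 5.38 and 9.13 in non-Dbx1 samples (L2FC 1.26 ± 0.43 SE, limma FDR = 0.907). *Cplx2*, a complexin that clamps and promotes fusion with *Syt1*, followed with an L2FC of 0.997 and overlapping groups. At the other end were *Unc13a*, which primes vesicles, at −0.39 and *Syn1*, which tethers them, at −0.27.

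A list of 16 genes was drawn up for dense core vesicles, the compartment of *Syt4* and *Syt9*. It also held *Igf1r*, which encodes a receptor of the plasma membrane rather than a vesicle protein. All 16 passed the filter, and limma called 0, as did voom here and over all genes it tested. At an unadjusted p under 0.05 limma had 1 higher and 1 lower, where 2.73% and 2.48% of all genes tested were. The groups did not overlap in 4 of the 16, with *Scg5* and *Igf1r* higher in Dbx1 and *Scg2* and *Pcsk1* lower, beside 10.6% of all genes in either direction. The granin *Scg2* measured 109.8, 104 and 87.4 RPKM in Dbx1 samples, as against 114, 316 and 210 in non-Dbx1 samples (L2FC −0.97 ± 0.36 SE, limma FDR = 0.912). *Scg5*, the chaperone of the prohormone convertase encoded by *Pcsk2*, went the other way, at 397, 467 and 389 against 179, 248 and 352 RPKM (L2FC 0.73 ± 0.29 SE, limma FDR = 0.912). *Pcsk2* itself had an L2FC of 1.13 with overlapping groups, and *Pcsk1*, the other convertase, had −1.38, from 0 to 258 reads per sample. The *Pcsk1* groups were barely apart, at 0.616 RPKM (19 reads) in Dbx1 replicate 2 and 0.642 (17 reads) in non-Dbx1 replicate 1.

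Among the genes whose profile over the 6 samples was most like that of *Syt10* were *Gm4889*, *Gm45260*, *2310069G16Rik* and *Zfp105*. Likeness was the root mean square difference between profiles of log2(RPKM + 1), each centred on its own mean, and it was 0.211 for *Gm4889* and 0.357 for *Zfp105*. *Gm4889* measured 4.82, 11.96 and 3.88 RPKM in Dbx1 samples and was listed at 0 in every non-Dbx1 sample. These genes had their highest value in Dbx1 replicate 2, as *Syt10* did. They were picked for this pattern from 17614 genes, so it is a description of these samples.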

How the data were processed

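The deposited values are RPKM, 1 file per sample. The authors amplified cDNA with SMART-Seq v4, sequenced Nextera libraries, aligned single-end reads with Tophat2 to mm10, counted them per gene name with HTSeq without strand, and divided by exon length from an Ensembl annotation (release not given in the sources used here). No further scaling between samples is described. All 27067 genes with RPKM above 0 gave reads within 1.2e-05 of a whole number at a whole exon length, the smallest such length was taken (for the 6340 genes read in 1 sample it rests on that sample alone), and these reads summed to 99.5% to 99.6% of the totals. Of the 49568 names, 95.3% matched GENCODE vM21.

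The authors tested counts with DESeq2. Here log2(RPKM + 1) was tested with limma 3.58.1 in R 4.3.3 (mean-variance trend, two-sided, Benjamini-Hochberg FDR 0.1), which was tested on simulated data. Members, lists and pairs were chosen with earlier results of these data known. The text names all synaptotagmins, any gene called in a list and the 2 at either extreme of its L2FC, and the 5 genes most like *Syt10*, of which 1 is not reported here, with a few further genes of the marker lists. Other values came from Python 3.11.15. Alternatives were another pseudocount, 2 other filters, size factors, quantile normalization, no trend, a replicate block, each sample left out, each group alone, the sum without *Syt1* and the ratio of means. Voom on reads and the merged exon length were added after seeing the data. The detection floor was set at 3 reads, and the RPKM this equals depends on the depth and the exon length.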

Additional observations from a re-analysis of the deposited data

How the results depend on the processing

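Of the genes called by limma, the 1 lower in Dbx1 became 3 without the mean-variance trend and 0 with a pseudocount of 0.1, with all genes above 0 in at least 1 sample, and with voom on whole reads. Leaving out 1 sample gave 0 to 1 genes higher and 0 to 1 lower. It was 1 higher and 0 lower without non-Dbx1 replicate 2, and 0 without non-Dbx1 replicate 3. With the replicate block it was 0 genes in either direction. The replicate numbers come from the sample titles and mark different mice, and deviations from the group means correlated by −0.11, 0.025 and −0.052 between same-numbered samples, so the numbers were not taken as pairs. None of the 7 other synaptotagmins and no gene of either list was called under any of these alternatives. With a pseudocount of 0.1, *Syt3* exceeded *Syt6* by 6.75 and *Syt10* by 5.87 on the log2 scale. With the merged exon length, *Syt1* exceeded *Syt2* by 3.27 and *Syt7* by 3.03, and the *Syt4* minus *Syt11* difference became −0.46. The summed RPKM of the members was then 448 in Dbx1 and 426 in non-Dbx1. With the deposited lengths but without *Syt1*, the sum was 253 in Dbx1 and 274 in non-Dbx1. The L2FC of *Syt14* turned to −0.12 with a pseudocount of 0.1, −0.035 with quantile normalization and −0.27 with voom, and ran from −0.38 to 0.50 with 1 sample left out, where that of *Syt17* ran from −0.70 to 0.91. Of the members, *Syt5* changed sign, without Dbx1 replicate 1 or non-Dbx1 replicate 1. On the log2(RPKM + 1) scale the L2FC of *Syt10* ran from 2.17 to 2.77 and that of *Syt6* from −0.89 to −0.27. Other scales gave wider values. For *Syt10* it was 5.10 with a pseudocount of 0.1, 6.06 by the ratio of means and 6.33 with voom. For *Syt6* these were −1.77, −1.01 and −3.55. The causes were not tested. Depth limits *Syt10* and *Syt6*, which rest on at most 125 and 169 reads in a sample.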

Other observations

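Over the 25944 genes with reads and an annotated exon length, the length behind the deposited RPKM equalled the merged exon length of GENCODE vM21 for 32.5%, was longer for 49.9% and shorter for 17.6%. Among the synaptotagmins outside the 10 members, *Syt16* had the largest shortfall, at 2705 bases against 9144, and its mean over the 6 samples was 41.6 RPKM as deposited and 12.3 with the merged length. *Syt13*, like *Syt10*, had equal lengths, at 3761 bases.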
